A study of Mus musculus with 12 samples.

Results

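AMP-activated protein kinase (AMPK) and the 2 kinases that switch it on were examined at the mRNA level in fasted livers of mice without and with SIRT4, a mitochondrial sirtuin. The members are 8 listed genes: the catalytic subunits Prkaa1 and Prkaa2, the beta subunits Prkab1 and Prkab2, the gamma subunits Prkag1 and Prkag2, and the upstream kinases Stk11 and Camkk2. Every probe set whose own gene number in the deposited fold-change table is that of a member was taken, which gave 21 of 45037 probe sets and 8 of 17951 named genes. The arrays were Affymetrix Mouse Genome 430 2.0, on which a probe set is a group of short oligonucleotides that read 1 or more transcripts. The 6 Sirt4 knockout (SIRT4 KO) and 6 wild-type (SIRT4 WT) animals were male 129SV littermates, 7 to 8 months old and killed after a 16-h overnight fast, with no treatment and 1 array per animal. The sources used here do not give how the knockout allele was made or in which tissues Sirt4 was deleted, nor any cell type driver.

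AMPK is a trimer of a catalytic alpha subunit, a beta subunit that holds the complex together and binds glycogen, and a gamma subunit that senses AMP, ADP and ATP. LKB1, the product of Stk11, phosphorylates the activation loop of the alpha subunit, and CaMKK2, the product of Camkk2, does so when calcium rises. In liver, active AMPK restrains fatty acid and cholesterol synthesis and favours fatty acid oxidation, and its activity is set largely by phosphorylation and nucleotide binding, which an mRNA array does not measure.

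Values are intensities on a linear scale, and differences are log2 fold changes of intensity + 50, KO minus WT, fitted over all probe sets with limma. This scale understates differences of dim probe sets. None of the 21 member probe sets passed an adjusted p of 0.05, where 0 of all 45037 probe sets (0%) did. At an unadjusted p under 0.05 there were 3 of the 21 members (14.3%), against 5.89% of all probe sets. Those 3 were the 1424119_at probe set of Prkab1, with a mean below WT in KO, and the 1435875_at and 1435874_at probe sets of Prkab2, with means above WT in KO. Of the 12 fits that left out 1 animal, the one without KO replicate 1 kept all 3 of these probe sets at an unadjusted p under 0.05. None of the 3 stayed there without KO replicate 2, 3 or 5 or WT replicate 1, 1 stayed without KO replicate 4 or 6 or WT replicate 3, 4 or 6, and 2 without WT replicate 2 or 5. Other members took their place in some of these fits. Without KO replicate 5 there were again 3, namely Prkag1 1417690_at and 1457803_at and Camkk2 1455401_at, where 7.69% of all genes had such a p. Without WT replicate 1 there was 1, Camkk2 1455401_at, where 5.75% did. Over the 12 fits this share of genes, at 1 probe set each, ran from 5.30% to 7.69%. The groups overlapped for all 21 members, where 0.229% of all probe sets had groups that did not. Of the 21 log2 fold changes, 12 were above 0 and 9 below, with a median of 0.024, against 50.2% above 0 and a median of 0.000265 over all probe sets. The adjusted p-values of the members ran from 0.843 to 0.997. No member had a p under 0.05 in either p-value column of the authors' deposited table, where 1.70% of all probe sets did in the first column and 5.33% of those with a value in the second.

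Sirt4, the targeted gene, was lower in each of the 6 knockouts than in any WT animal. Its probe set 1426847_at ranged from 81.0 to 121 in KO livers (median 107), against 153 to 187 in WT livers (median 175), with a log2 fold change of -0.53 (SE 0.070). The limma adjusted p was 0.0534 over all probe sets and 0.0355 when 1 probe set per gene was tested. The labels do not locate the deletion relative to this probe set. The 7 hepatocyte markers, Alb, Apoa1 and Ttr among them, had mean intensities of at least 5677, against array medians of 36.6 to 38.69. Numbers in the titles fall into a 7200 series (5 KO, 2 WT) and a 7500 series (1 KO, 4 WT), and 3 KO titles but no WT title end in -2; the labels do not say what either means.

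WT replicates 5 and 6 and KO replicate 4 stood apart in acute phase genes, the liver's inflammatory secreted proteins. The mean of the 6 acute phase genes, in log2 units around each gene's mean, was 1.28 in KO replicate 4, 2.21 in WT replicate 5 and 2.01 in WT replicate 6, against -1.17 to 0.089 in the other animals. All 10 markers of Kupffer cells and macrophages had log2 fold changes below 0 (median -0.32, 9 of 10 at an unadjusted p under 0.05, against 3.29% of all genes), with summed intensities of 2690 to 4789 in KO livers and 3216 to 6396 in WT livers. The 4 measured neutrophil markers had a median of -0.37, with -0.64 for S100a8 and -0.61 for S100a9, both highest in WT replicates 5 and 6, and -0.13 for Ngp and -0.018 for Camp. None of these 4 had an unadjusted p under 0.05 with limma. The 4 B cell markers had a median of -0.099, with 2 at an unadjusted p under 0.05, singled out here after their values were seen. Ighm, the IgM heavy chain, averaged 64.0 ± 5.68 in KO livers and 107 ± 21.7 in WT livers (SD, n = 6 each; log2 fold change -0.46, limma adjusted p = 0.236), and Ms4a1, which encodes CD20, gave -0.16. Medians were 0.024 for hepatocyte, 0.069 for sinusoidal endothelial, -0.022 for stellate, -0.025 for T and NK cell, 0.095 for erythroid, -0.054 for skeletal muscle and -0.77 for acute phase genes. In bulk liver, fewer cells of a type and less RNA per cell cannot be told apart. The part of these lists in the values of the AMPK genes was not tested.

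The catalytic subunits showed small differences. Prkaa1, which encodes alpha-1, read 80.8, 92.5 and 104 in KO livers (lowest, median, highest) and 72.5, 83.6 and 92.8 in WT livers. The groups overlapped, with 3 KO animals above every WT animal. The log2 fold change was 0.078 (SE 0.056, adjusted p = 0.908 by limma), with a 95% interval of -0.040 to 0.20. Prkaa2, which encodes alpha-2, the form also abundant in skeletal and heart muscle, read 556, 653 and 677 in KO livers and 532, 635 and 669.6 in WT livers on its brighter probe set, 1429463_at. The ranges nearly coincided, with WT replicate 6 lowest of all 12 animals. The log2 fold change was 0.027 (SE 0.063, adjusted p = 0.982 by limma), and the interval, -0.11 to 0.16, corresponds to folds of intensity + 50 between 0.929 and 1.12. Its second probe set, 1429464_at, has the same source sequence in the authors' deposited table and gave -0.021. The sign for Prkaa2 was not stable: it was -0.035 on the brighter and 0.033 on the second probe set without the KO arrays whose titles end in -2.

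**Figure D1:**
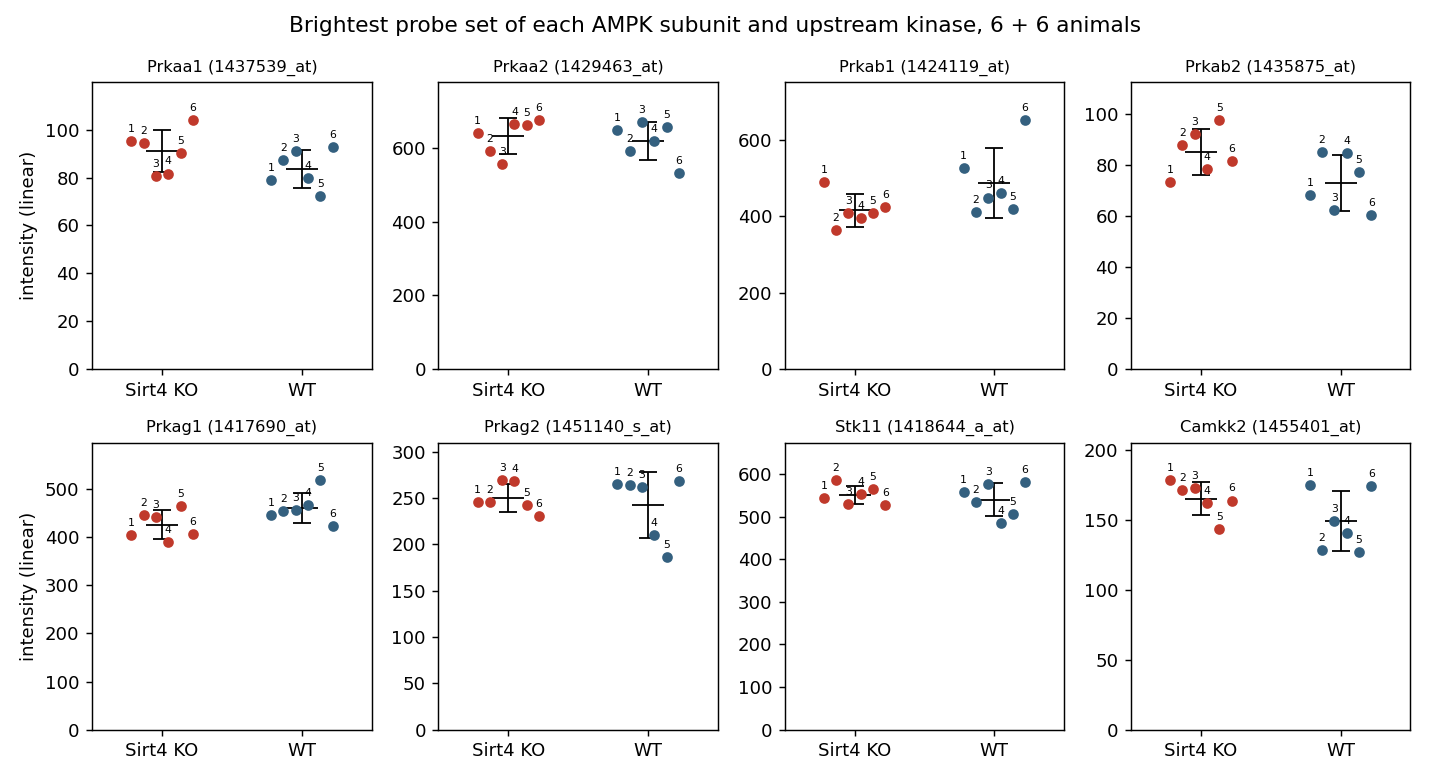
Linear intensity (vertical axes, from 0) of the brightest probe set of each of the 8 genes in 6 Sirt4 KO and 6 WT livers; points are animals numbered by replicate, and black bars are the mean and SD. The groups overlap in every panel, and WT replicate 6 lies at 652 for Prkab1, above the next WT animal at 526.

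The beta subunits held all 3 of the members' smallest p-values with all 12 animals, below WT for Prkab1 and above WT for Prkab2 in their means. Without KO replicate 5 the smallest unadjusted p of a member from limma was that of Prkag1 1457803_at, and no beta probe set was under 0.05. Prkab1, which encodes beta-1, read 363, 408 and 490.2 in KO livers (lowest, median, highest) and 411, 455 and 652 in WT livers on 1424119_at. It averaged 415 ± 42.3 in KO livers and 486 ± 90.9 in WT livers (SD, n = 6 each). Of the KO animals, 4 lay below every WT animal, while KO replicate 1 at 490.2 exceeded all WT animals but replicates 1 and 6. The log2 fold change was -0.20 with a 95% interval of -0.39 to -0.00019 and an SE of 0.092. Its limma adjusted p was 0.846, and permuting the 12 animals in every arrangement gave an exact p of 0.0909 (two-sided). Without WT replicate 6 the log2 fold change was -0.11 (limma adjusted p = 0.925), and without WT replicates 5 and 6 together it was -0.14. The animal with the highest Prkab1, WT replicate 6, was also 1 of the 3 with high acute phase genes, at 2.01. The other 2, WT replicate 5 and KO replicate 4, read 419.7 and 395.0, below their group medians of 455 and 408. The part of the acute phase state in the Prkab1 values was not tested beyond leaving animals out. The second Prkab1 probe set, 1452457_a_at, was dimmer, at 90.4 ± 15.5 in KO livers and 94.4 ± 15.5 in WT livers (SD, n = 6 each), with a log2 fold change of -0.040 that became 0.029 with the title series in the model.

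Prkab2, which encodes beta-2, had log2 fold changes above 0 on all 3 of its probe sets. On the brightest, 1435875_at, it read 73.4, 84.7 and 97.9 in KO livers and 60.4, 72.8 and 85.3 in WT livers. The groups overlapped, although all 6 KO animals lay above the WT median and 3 above every WT animal. The means were 85.3 ± 9.09 in KO livers and 73.1 ± 10.97 in WT livers (SD, n = 6 each), and the log2 fold change was 0.14 (SE 0.064, 95% interval 0.0015 to 0.27, limma adjusted p = 0.843, exact permutation p = 0.0693). The probe set 1435874_at read 68.0, 81.9 and 108 in KO livers and 61.1, 68.2 and 82.8 in WT livers, with a log2 fold change of 0.15 (SE 0.069, adjusted p = 0.843 by limma) that was 0.096 without KO replicate 5, its highest animal. WT replicate 6 was the highest WT animal on this probe set and the lowest on 1435875_at. The authors' deposited table gives both probe sets 1 source sequence, so they are not independent of each other. The third, 1442001_at, read 40.1 ± 6.72 in KO livers and 33.2 ± 7.12 in WT livers (SD, n = 6 each), close to the array medians, with a log2 fold change of 0.12 (limma adjusted p = 0.878).

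Within the 7200 series (5 KO, 2 WT) the log2 fold changes were -0.16 for Prkab1 1424119_at, 0.10 for Prkab2 1435875_at and 0.19 for Prkab2 1435874_at. In the 7500 series, where the single KO animal leaves no test, the differences were -0.18, 0.12 and 0.0035. With the title series in the model they were -0.17, 0.11 and 0.12 (limma adjusted p = 0.904, 0.908 and 0.907). Without the KO arrays whose titles end in -2 they were -0.26, 0.22 and 0.24, and the limma adjusted p was 0.9999 for each.

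**Figure D2:**
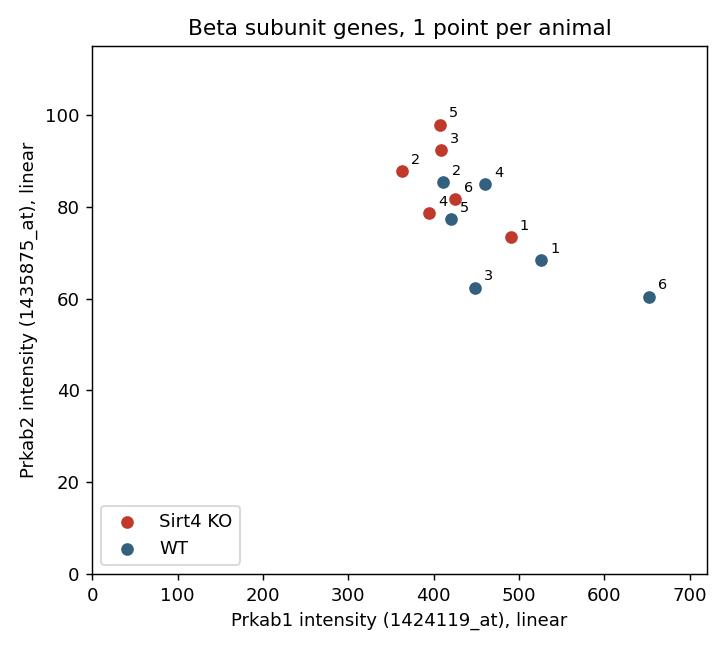
Linear intensity of Prkab1 (horizontal axis, 1424119_at) and Prkab2 (vertical axis, 1435875_at) in each liver, red for Sirt4 KO and blue for WT, numbered by replicate. Animals with more signal on this Prkab1 probe set tended to have less on 1435875_at (r = -0.742), with WT replicate 6 at 652 and 60.4 at the far end. On 1435874_at, a Prkab2 probe set with the same source sequence as 1435875_at, WT replicate 6 was instead the highest WT animal, at 82.8.

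Across the 12 livers the brightest probe sets of the beta genes ran in opposite directions (Pearson r = -0.742, permutation p = 0.00416; Spearman rho = -0.755, permutation p = 0.00586), the lowest r of 28 pairs among the 8 genes. Adjusted over the 28 pairs these permutation p-values were 0.116 and 0.147, so the relation did not pass the correction. Without the 2 animals farthest from the Prkab1 median r was -0.508, within the 7 arrays of the 7200 series it was -0.756, and after removing each genotype's mean it was -0.645. The 7500 series has 5 arrays, too few for a value. The r values above are all for Prkab1 1424119_at with Prkab2 1435875_at. Correlations of Prkab1 with the other Prkab2 probe sets, 1435874_at and 1442001_at, were not tested, so the relation is limited to this pair. WT replicate 6, highest for Prkab1 1424119_at, was the lowest animal on 1435875_at (60.4) but the highest WT animal on 1435874_at (82.8). Those Prkab2 probe sets had r = 0.522 with each other.

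The promoters of the beta genes are shown because these genes gave the largest positive and negative log2 fold change among the 8 brightest probe sets. Each window runs from 250 bases before to 50 after the start of the gene, from RefSeq on GRCm38.p6, 5′ to 3′ on the gene's strand; capitals mark GGGCGG or its reverse complement CCGCCC, the GC box bound by Sp-family factors. Prkab1 lies at chr5:116024379-116024678 on the minus strand and Prkab2 at chr3:97657962-97658261 on the plus strand.
Prkab1: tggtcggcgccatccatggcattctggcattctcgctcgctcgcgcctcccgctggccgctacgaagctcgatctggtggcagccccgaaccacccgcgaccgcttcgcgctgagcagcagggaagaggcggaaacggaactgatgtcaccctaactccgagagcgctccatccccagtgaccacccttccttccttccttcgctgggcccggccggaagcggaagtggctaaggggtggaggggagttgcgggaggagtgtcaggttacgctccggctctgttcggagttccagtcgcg
Prkab2: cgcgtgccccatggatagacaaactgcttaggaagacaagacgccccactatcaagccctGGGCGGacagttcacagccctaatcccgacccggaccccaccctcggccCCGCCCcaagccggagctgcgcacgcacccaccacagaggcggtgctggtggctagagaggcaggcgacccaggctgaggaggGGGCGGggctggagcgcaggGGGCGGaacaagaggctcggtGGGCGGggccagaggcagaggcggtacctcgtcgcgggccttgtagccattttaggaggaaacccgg
The Prkab2 window holds 5 matches to the GC box and the Prkab1 window 0, where 35.7% of 32851 promoter windows of this length hold at least 1. Neither holds CCAAT (37.4% of windows), TATAAA (13.6%), the E-box CACGTG (7.15%) or the nuclear receptor motif AGGTCA (16.3%), each searched on both strands. GC content was 65.3% for Prkab1 and 68.0% for Prkab2, against a median of 52.7% over all windows. Of the 10 windows of the 8 genes, the AGGTCA motif occurred in 1, the middle window of the 3 of Prkag2.

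The gamma subunits differed among their own probe sets. Prkag1, which encodes gamma-1, read 390.0, 425 and 465 in KO livers and 422, 454 and 518 in WT livers on 1417690_at, its bright probe set. Of the KO animals, 3 lay below every WT animal and 1 above the WT median. It averaged 426 ± 29.5 in KO livers and 460.1 ± 31.8 in WT livers (SD, n = 6 each), with a log2 fold change of -0.10 (SE 0.056, adjusted p = 0.873 by limma, exact permutation p = 0.0693). Without the KO arrays whose titles end in -2 the log2 fold change was -0.023. Its other probe sets, 1457803_at and 1433533_x_at, had means of 15.6 to 22.7 in either genotype, below the lowest array median of 36.6, and gave 0.15 and -0.0094.

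Prkag2, which encodes gamma-2, had 5 probe sets with 2 log2 fold changes above 0 and 3 below. The authors' deposited table gives 1451140_s_at, 1423831_at and 1423832_at 1 source sequence, so they are not independent of each other. The brightest, 1451140_s_at, whose suffix marks probes that can bind transcripts of more than 1 gene, read 231, 246 and 269 in KO livers and 186, 263 and 269 in WT livers. WT replicates 4 and 5 lay below all KO animals, and the other WT animals lay above all KO animals but replicates 3 and 4. The log2 fold change was 0.046 (SE 0.075, adjusted p = 0.971 by limma), and it was -0.015 without WT replicate 5. The probe sets 1423831_at and 1423832_at averaged 143 ± 12.7 and 76.3 ± 7.44 in KO livers, against 154 ± 11.7 and 85.4 ± 12.5 in WT livers (SD, n = 6 each). Their log2 fold changes were -0.083 and -0.098 (limma adjusted p = 0.902 and 0.900), and that of 1423832_at was -0.057 without WT replicate 6 and -0.017 in the 7200 series alone. The dim probe sets 1457885_at and 1431263_at, with means of 14.3 to 21.2 in either genotype, gave 0.083 and -0.13. The authors' deposited table lists 1431263_at at a fold change of -1.45 and the dim Prkag1 probe set 1457803_at at 1.45, its largest for members, with P values of 0.180 and 0.175.

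**Figure D3:**
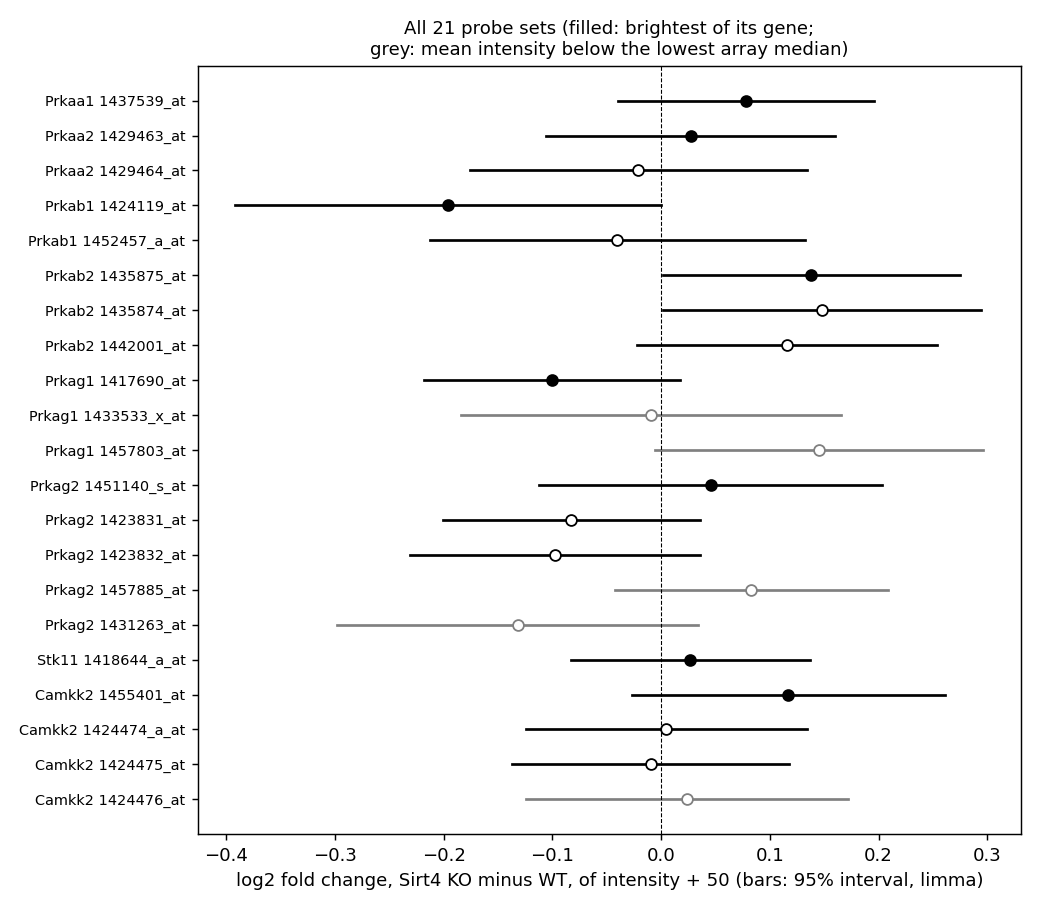
Log2 fold change of intensity + 50, Sirt4 KO minus WT (horizontal axis), with its 95% interval from limma, for all 21 probe sets; filled points are the brightest of each gene, and grey marks the 5 probe sets whose mean lies below the lowest array median. The interval excludes 0 for 1 Prkab1 and 2 Prkab2 probe sets before adjustment, at -0.20, 0.14 and 0.15.

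Of the upstream kinases, Stk11, which encodes LKB1, differed by less than the spread between animals. It read 526, 549 and 585 in KO livers and 485, 547 and 580.3 in WT livers on its single probe set, 1418644_a_at, with means of 551 ± 21.9 and 540.4 ± 38.6 in KO and WT livers (SD, n = 6 each). The log2 fold change was 0.027 (SE 0.052, adjusted p = 0.978 by limma), with a 95% interval of -0.083 to 0.14, or folds of intensity + 50 of 0.944 to 1.10. A further probe set, 1448062_at, is tied to Stk11 only through the accession in the symbol block and is not a member; it averaged 12.9 in KO livers and 15.1 in WT livers.

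Camkk2, the calcium-dependent kinase, had 4 probe sets. The brightest, 1455401_at, read 144, 168 and 178 in KO livers and 127, 145 and 175 in WT livers. Of the KO animals, 5 lay above the WT median, and WT replicates 1, 3 and 6 lay among the KO animals. The log2 fold change was 0.12 (SE 0.068, 95% interval -0.027 to 0.26, limma adjusted p = 0.882, exact permutation p = 0.134). The other Camkk2 probe sets were closer to 0, at 0.0048 for 1424474_a_at, -0.0097 for 1424475_at and 0.024 for 1424476_at. Their limma adjusted p-values were 0.986 to 0.997, and the authors' deposited table gives them 1 source sequence. The 1424476_at probe set averaged 15.5 in KO livers and 14.4 in WT livers, below the lowest array median of 36.6. It gave 0.090 with a floor of 10 and no offset. The 1424475_at probe set, at 39.4 in KO livers and 39.9 in WT livers, lay close to the array medians.

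Over the brightest probe set of each of the 8 genes, 6 log2 fold changes were above 0 and 2 below, with a median of 0.036, against a median of 0.00052 and 50.3% above 0 over 17951 genes. The 95% intervals of these 8 reached folds of intensity + 50 of 0.762 at the lowest, for Prkab1, and 1.21 at the highest, for Prkab2. The offset narrows such bounds: with a floor of 10 and no offset the Prkab2 log2 fold change was 0.23, against 0.14. Within the 7200 and 7500 series, the log2 differences of the genes other than the beta subunits were 0.059 and 0.20 for Prkaa1, 0.0039 and 0.12 for Prkaa2, and -0.060 and -0.17 for Prkag1. They were -0.049 and 0.0064 for Prkag2, 0.021 and -0.023 for Stk11, and 0.10 and 0.12 for Camkk2. Prkag2 and Stk11 thus had opposite signs in the series. Of all 21 probe sets, 16 had a mean at or above the lowest array median. In GRCm38.p6, Prkab1, Prkag2 and Camkk2 lie on chromosome 5, the chromosome of Sirt4. Their distances from Sirt4 were not compared.

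**Figure D4:**
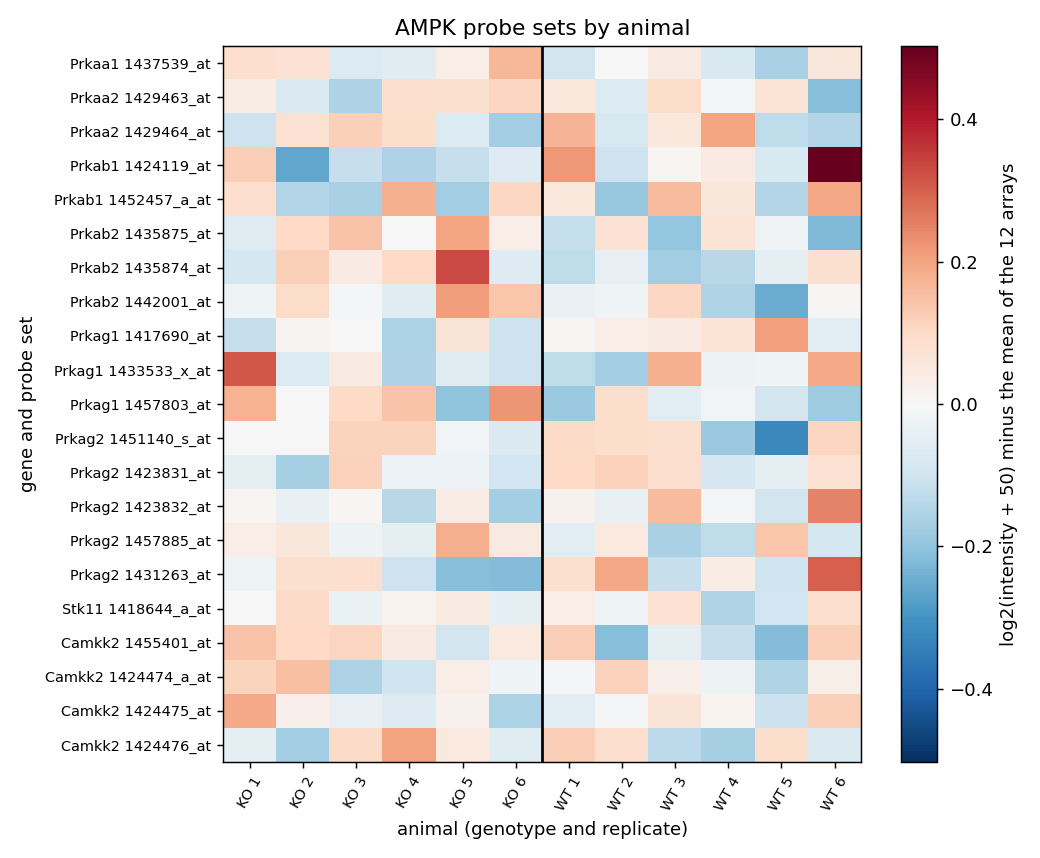
Log2(intensity + 50) of each of the 21 probe sets (rows) in each animal (columns, Sirt4 KO left of the line and WT right), minus the mean over the 12 arrays. The strongest cell is Prkab1 1424119_at in WT replicate 6, at an intensity of 652, and no row separates the genotypes.

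Correlations between the members had no common sign. Among the 28 pairs of brightest probe sets, Pearson r over the 12 arrays had a median of -0.027 and was above 0 in 14. After the beta pair, the next lowest was between Prkag1 and Camkk2 (r = -0.699, permutation p = 0.0101, adjusted over the pairs p = 0.135; rho = -0.720, permutation p = 0.0105). It was -0.650 without the 2 arrays farthest from the Prkag1 median and -0.436 within the 7200 series. The highest was between Prkag2 and Stk11 (r = 0.683, permutation p = 0.0145, adjusted over the pairs p = 0.135; rho = 0.385, permutation p = 0.217). It was 0.155 without the 2 arrays farthest from the Prkag2 median and -0.583 within the 7200 series, so it rested on those arrays. Of the 24 pairs of probe sets of the same gene, 13 had r above 0. Pairs of other genes were not taken as a background, so whether the members vary together was not tested. For Prkab1 the 2 probe sets had r = 0.581 (rho = 0.476), and for Prkaa2 r = -0.0329 (rho = -0.161), as a description over 12 arrays that share their normalization.

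For each member, 1 of 8168 other genes with a mean above 100 followed its brightest probe set most closely over the 12 arrays. These were Rab2b, a small GTPase, for Prkag1 (r = 0.940, rho = 0.909), the histone deacetylase Hdac2 for Camkk2 (r = 0.931, rho = 0.909), the aldo-keto reductase Akr1c20 for Prkab2 (r = 0.922, rho = 0.881) and annexin Anxa1 for Prkab1 (r = 0.908, rho = 0.720). The last was 0.557 without the 2 arrays farthest from the Prkab1 median. The others were Ppp6r3, a phosphatase regulatory subunit, for Stk11 (r = 0.900), Coq7 of coenzyme Q synthesis for Prkag2 (r = 0.889), the N-terminal acetyltransferase Naa50 for Prkaa1 (r = 0.867) and Dcaf12 for Prkaa2 (r = 0.834). That of Dcaf12 was 0.610 without the 2 arrays farthest from the Prkaa2 median, and those of the genes other than Anxa1 and Dcaf12 stayed between 0.773 and 0.911. Each is the largest of many correlations and is given as a description, with no p.

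Around AMPK, 74 of 75 listed genes of the pathway were measured, and none passed an adjusted p of 0.05 with limma, where 0 of 17951 genes (0%) did at 1 probe set per gene in the fit over all probe sets. At an unadjusted p under 0.05, 2 had log2 fold changes above 0 and 2 below, 5.41% of the 74, against 6.53% of all genes (3.25% higher, 3.29% lower). The count of 4 was 9 (12.2%) without KO replicate 3, where 6.48% of all genes had such a p, and 7 (9.46%) without WT replicate 2, where 7.27% did. The median log2 fold change of the 74 was 0.016, with 45 above 0.

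Of 11 genes of adenylate handling, enzymes that make, interconvert or break down adenine nucleotides and adenosine, 1 above and 1 below 0 had an unadjusted p under 0.05. Nt5e, the ectonucleotidase that makes adenosine from AMP outside the cell, averaged 218 ± 37.0 in KO livers and 148 ± 33.1 in WT livers (SD, n = 6 each; log2 fold change 0.44, SE 0.11, limma adjusted p = 0.706), while its dimmer probe set gave 0.079. Ak4, a mitochondrial adenylate kinase, averaged 1022 ± 113 in KO livers and 1210.1 ± 154 in WT livers (-0.23, limma adjusted p = 0.831). Its other probe sets gave -0.15 and -0.11, and 0.031 on a dim one. Ak3, the GTP:AMP kinase of the matrix, had a log2 fold change of 0.11. The median of the 11 was 0.027.

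Of 12 AMPK-related kinases that LKB1 also activates, 8 were above 0, and Snrk was the 1 at an unadjusted p under 0.05. It averaged 972 ± 62.0 in KO livers and 847 ± 139 in WT livers (SD, n = 6 each; log2 fold change 0.20, limma adjusted p = 0.838), and 0.18 on its second probe set. Brsk2 and Nuak1, at 0.10 and -0.085, came next. The Brsk2 probe set averaged 15.1 in KO livers and 10.6 in WT livers, below the lowest array median.

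Of 27 measured AMPK substrates 13 were above 0 and 14 below, with a median of -0.0040. Mff, the mitochondrial fission factor, averaged 967 ± 62.6 in KO livers and 1082 ± 89.4 in WT livers (SD, n = 6 each; log2 fold change -0.15, limma adjusted p = 0.831), and -0.089 on its dimmer probe set. Rptor, the mTORC1 scaffold raptor, and Acaca, acetyl-CoA carboxylase 1, gave -0.092 and -0.099. The Acaca probe set averaged 10.9 in KO livers and 15.3 in WT livers, below the lowest array median.

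Of 17 LKB1 partners and AMPK regulators 13 were above 0 (median 0.034) and 0 had an unadjusted p under 0.05 with limma. Cab39, the MO25 scaffold of LKB1, gave 0.083, the phosphatase Ppm1a 0.066 and Prkag3, the gamma-3 subunit of skeletal muscle, -0.14 at means of 19.7 in KO livers and 26.4 in WT livers. Of 7 genes of the mTORC1 arm, which AMPK inhibits, 4 were above 0 (median 0.011). Eif4ebp1, the translation repressor 4E-BP1, gave -0.13, the kinase Mtor 0.11 and Tsc1, an inhibitor of the arm, -0.091.

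**Figure D5:**
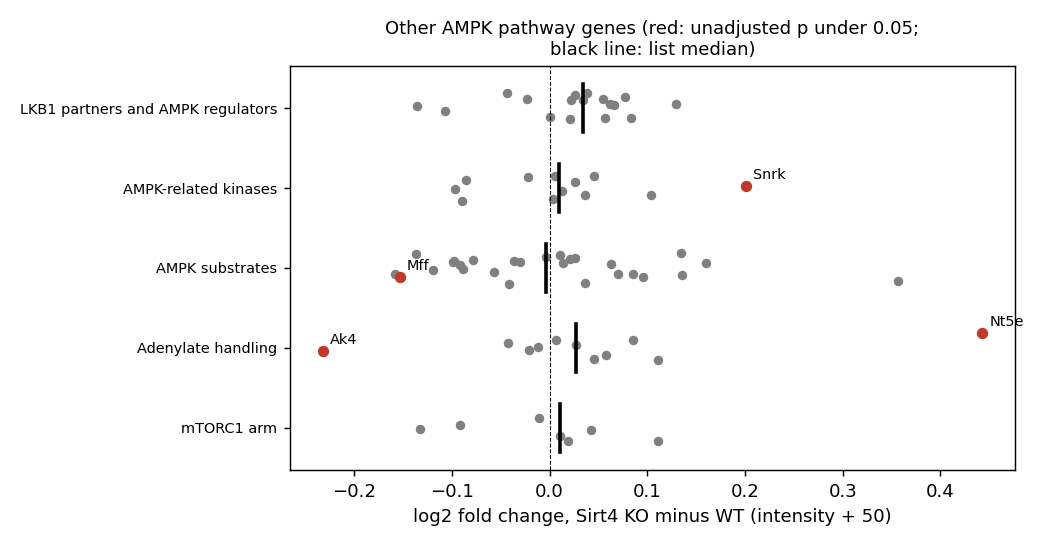
Log2 fold change, Sirt4 KO minus WT (horizontal axis), of the brightest probe set of each of 74 other AMPK pathway genes in 5 lists (rows); red marks an unadjusted p under 0.05 and black lines are list medians. The medians lie between -0.0040 and 0.034, and the red points are Nt5e and Snrk on the right and Ak4 and Mff on the left.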

How the data were processed

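Liver RNA of 12 mice was measured on 1 array each. Per the labels' protocols, Trizol-extracted total RNA was column-cleaned and made into biotinylated cRNA. The authors deposited intensities on a linear scale, and the submitters' processing notes name RMA without a version. Array medians lie at 36.6 to 38.69, and 689 cells are 0. RMA usually gives log2 values without zeros, so how these intensities were made is not settled by the sources used here. Both tables hold identical intensities, and the authors' deposited fold-change table adds a signed fold ratio and p-values without adjustment. The symbol block of that table is out of row order, so the gene number of the row itself named 36239 probe sets, and 593 more were named through the accession, with names from RefSeq GRCm38.p6.

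Genotype labels define the groups, and replicate numbers, given in accession order, pair no animals. Log2(intensity + 50) was fitted with limma 3.58.1 in R 4.3.3 (lmFit, eBayes, no trend), two-sided, with Benjamini-Hochberg adjustment over 45037 probe sets, and the fit was tested on simulated data. The number of arrays limits the precision: standard errors of members ran from 0.052 to 0.092. Other offsets, filters, normalizations and left-out arrays were tried. Exact tests permuted the 12 animals in every arrangement. Correlations were computed on log2(intensity + 50), and those with a p were permuted 100000 times. Named genes are the 8 members, Sirt4, up to 3 genes of smallest p in each pathway list and the gene most alike to each member. Marker lists covered hepatocytes, macrophages, endothelium, stellate cells, neutrophils, B cells, T and NK cells, erythroid cells, muscle and acute phase genes. The members and lists were chosen with earlier results of these data known. Of the listed genes, 1 pathway gene and 2 markers were not analysed here.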

Additional observations from a re-analysis of the deposited data

How the results depend on the processing

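No member passed an adjusted p of 0.05 under any of 23 alternatives (11 changes of processing or samples and 12 that left out 1 animal each), and the lowest adjusted p was 0.631. Of 463 member values, 39 changed sign, all from 9 probe sets; the other 12, which include the brightest of Prkaa1, Prkab1, Prkab2, Prkag1 and Camkk2, kept theirs. The count of 3 members at an unadjusted p under 0.05 was 0 with an offset of 16 (against 5.63% of all genes) or a floor of 10 (6.36%). It was 0 of 14 tested with a mean intensity above 50 (6.69%), and 0 in the 7200 series alone (4.48%). With 1 probe set per gene it was 1 of 8 tested (6.29%). It was also 1 with title series in the model (6.06%), without WT replicates 5 and 6 (5.31%) or with a trend (6.42%). It stayed at 3 with quantile normalization (6.24%), arrays centred on their medians (6.55%) and without the KO arrays whose titles end in -2 (4.52%). Leaving out 1 animal gave 0 to 3 (5.30% to 7.69%), not always of the same probe sets. With title series in the model the 1 was Prkag2 1431263_at. For the 74 pathway genes leaving out 1 animal gave counts of 3 to 9. With title series in the model, log2 fold changes were -0.029 (Prkag2 1451140_s_at), 0.029 (Prkab1 1452457_a_at), -0.046 (Camkk2 1424476_at), 0.039 (Prkag1 1433533_x_at) and -0.026 (Camkk2 1424474_a_at). In the 7200 series alone the same probe sets gave -0.049, 0.024, -0.078, 0.16 and -0.046, and Camkk2 1424475_at 0.060. Without the KO arrays whose titles end in -2, Prkaa2 gave -0.035 (1429463_at) and 0.033 (1429464_at). Without WT replicates 5 and 6, values were -0.0025 (Prkaa2 1429463_at), 0.031 (Prkag1 1433533_x_at) and -0.024 (Camkk2 1424474_a_at). Leaving out 1 animal spanned 0 for Prkag2 1451140_s_at (-0.015 to 0.072), Stk11 (-0.0010 to 0.046), Prkaa2 1429463_at (-0.013 to 0.061) and 1429464_at (-0.053 to 0.017), Prkag1 1433533_x_at (-0.073 to 0.028), and Camkk2 1424476_at (-0.014 to 0.060), 1424475_at (-0.049 to 0.021) and 1424474_a_at (-0.025 to 0.037). The cause of these changes was not tested. The Sirt4 adjusted p ran from 0.0184 to 0.967, below 0.05 with 1 probe set per gene (0.0355), quantile normalization (0.0357) and without the KO arrays whose titles end in -2 (0.0184). No paired analysis was possible because replicate numbers follow accession order.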
